A study of Homo sapiens with 4 samples.

Results

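Read-through genes are gene IDs that annotators give to transcripts running from one gene through its polyadenylation site into the next gene on the same strand. They were taken here as every gene ID whose symbol joins the symbols of 2 other gene IDs in the deposited table with a hyphen, as in RAB4B-EGLN2. HLA and mitochondrial symbols and antisense, overlapping, intronic and divergent transcripts were left out. The rule found 89 read-through gene IDs, with 88 symbols since ARMCX5-GPRASP2 has 2 IDs, among 25798 gene IDs, and they had 175 parent gene IDs. The cells were SW1990, an established human pancreatic cancer line labelled wild type, and RNA was measured by sequencing of total RNA. In one group SW1990 cells received erianin, a bibenzyl natural product from Dendrobium orchids, at 100 nM for 48 h (2 libraries), and the control group received the solvent DMSO for 48 h (2 libraries). The study asked how erianin acts on pancreatic cancer cells, and its title names the kinases AKT and ASK1. Nothing in the labels says that replicates were separate cultures, so a p-value here reflects the spread of these 4 libraries alone, and that spread may be technical.

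A gene normally ends where its transcript is cleaved and polyadenylated, after which an exonuclease helps to release RNA polymerase from the template. When cleavage fails or the polyadenylation site is skipped, the polymerase can continue into the neighbouring gene, and splicing can then join exons of both genes into 1 RNA. Some of these RNAs code for a fusion of both proteins, and others carry a premature stop codon and can be targets of nonsense-mediated decay. Since most of a read-through transcript is the same sequence as its parents, a short read seldom tells them apart, and the gene ID a read is counted under depends on how the counting divides it.

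What sets a read-through RNA apart is the exon junction that joins one parent to the other. Junctions that join coding exons of both parents are shown for 4 read-through genes described below, as the 20 bases before and the 20 bases after the junction in GENCODE 29 transcripts (build GRCh38), written 5′ to 3′. Capitals mark the first bases of the downstream parent's exon, and either side alone is also a sequence of a parent. The last upstream and first downstream bases lie at chr3:129095169-129130088 (− strand) for ISY1-RAB43 and chr20:50096820-50127975 (− strand) for PEDS1-UBE2V1. INO80B-WBP1 has 2 such junctions that share the same WBP1 exon, at chr2:74457538-74459643 and chr2:74457860-74459643 (+ strand). RPS10-NUDT3 has 2 that share the same RPS10 exon, at chr6:34341972-34418369 and chr6:34295685-34418369 (− strand).
INO80B-WBP1: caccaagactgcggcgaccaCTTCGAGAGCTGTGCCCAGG
INO80B-WBP1: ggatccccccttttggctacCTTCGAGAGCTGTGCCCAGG
ISY1-RAB43: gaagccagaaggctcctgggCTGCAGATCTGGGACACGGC
PEDS1-UBE2V1: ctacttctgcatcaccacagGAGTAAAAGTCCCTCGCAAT
RPS10-NUDT3: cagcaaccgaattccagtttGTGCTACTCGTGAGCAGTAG
RPS10-NUDT3: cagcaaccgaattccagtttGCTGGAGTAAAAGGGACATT

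The annotation shows how little sequence belongs to a read-through gene alone. GENCODE 29 held 85 of the 89 read-through genes, and all 85 lay on the same strand as both parents. In 84 of them the parents followed each other in the order of the name, the exception being POC1B-GALNT4, where GALNT4 lies inside the neighbouring gene. The median gap between the parents was 3516 bp, and in 8 pairs the parents overlapped. The read-through gene started within 200 bp of its upstream parent in 48 cases and ended within 200 bp of its downstream parent in 49. Exon bases found in neither parent made up a median of 3.76% of a read-through gene's exons, and 24 read-through genes had none. The gene type was protein coding for 76 of the 85, and 43 had at least 1 transcript annotated as a target of nonsense-mediated decay. In all, 126 annotated junctions joined exons of both parents, in 74 read-through genes.

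The 4 libraries were of similar depth, with 63336545 and 59923935 counts under erianin and 63254725 and 60798427 under DMSO. Keratins of ductal epithelium, the labelled cell type, were high in every library. KRT8, KRT18, KRT7, KRT19, EPCAM and MUC1 summed to 13042 and 14939 CPM (counts scaled to library size) under erianin and 12149 and 12453 CPM under DMSO, although EPCAM and MUC1 were at 2.39 to 6.05 CPM in every library. Summed blood markers were at 0.128 to 0.561 CPM, with PTPRC at 0 in all libraries except DMSO replicate 1, and summed endothelial markers at 0.628 to 1.30 CPM. The 4 fibroblast genes COL1A1, COL3A1, DCN and LUM summed to 3.03 and 4.07 CPM under erianin, against 25.95 CPM in DMSO replicate 1 and 4.28 CPM in DMSO replicate 2, and DCN was at 0 in both erianin libraries. In bulk RNA, fewer cells of a type and less RNA per cell cannot be told apart.

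DMSO replicate 1 also stood apart in its total of read-through counts. All 89 read-through genes together took 0.124% and 0.117% of the counts in the erianin libraries, against 0.0794% in DMSO replicate 1 and 0.118% in DMSO replicate 2. The groups overlapped, since DMSO replicate 2 lay between the erianin libraries. A large part of the total came from 1 gene, RPS10-NUDT3. Its largest row in the count table held 34107 and 33436 counts under erianin and 17588 and 33490 under DMSO. All 89 read-through genes together had 78329 and 70353 counts under erianin and 50249 and 71662 under DMSO. The lower total of DMSO replicate 1 thus need not hold for most read-through genes. The parents' total moved little, with 1.13% and 1.18% of the counts under erianin and 1.21% and 1.16% under DMSO. A read-through gene had at least 1 count in 77 and 69 cases under erianin and in 75 and 72 cases under DMSO. Whether the fibroblast counts of DMSO replicate 1 had a part in its lower read-through total was not tested.

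After the filter on low counts, 71 of the 89 read-through genes were tested, and 18 were not. Of the 18, 12 peaked below 20 counts in their highest library, and 2 reached at least 100, INO80B-WBP1 and ARL2-SNX15. Under erianin 2 read-through genes fell, RPL36A-HNRNPH2 and RAB4B-EGLN2, and 0 rose, by edgeR's quasi-likelihood test with Benjamini-Hochberg adjustment over all 17090 genes. The filter kept both only through the DMSO libraries, where they were high. INO80B-WBP1, whose counts stood in 1 library alone, was removed by it. Among genes at or near 0 in some libraries, the filter thus favoured those whose high libraries were of the same group or came in both groups. Among all genes tested 7 passed (0.041%), of which 5 fell (0.0293%) and 2 rose (0.0117%). DESeq2 called 4 read-through genes, these 2 lower and BORCS8-MEF2B and CHKB-CPT1B higher, against 9 lower and 12 higher over all genes. It gave no adjusted p for 13 of the tested read-through genes and for 3314 of all genes. Among read-through genes limma-voom called 0, and 0 over all genes. It had 23 read-through genes at an unadjusted p under 0.05, against 1673 of all genes. Leaving out 1 library changed the count to 16 (without erianin replicate 1), 4 (without erianin replicate 2), 14 (without DMSO replicate 1) or 12 (without DMSO replicate 2). In the same fits the count over all genes was 3166, 24, 62 and 73. In those fits the lone library of a group was assumed to vary like the other group.

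RPL36A-HNRNPH2 (chrX:101391011-101412297, + strand) joins RPL36A, a protein of the large ribosomal subunit, to HNRNPH2, an RNA-binding protein that takes part in splicing. It had 0 and 0 counts under erianin, against 286 and 270 counts under DMSO. In CPM this was 0 and 0 under erianin and 4.33 and 4.33 under DMSO. The groups did not overlap, and both DMSO libraries stood at nearly the same level. Set against 3 counts in each erianin library as a floor, it was at least 85.7-fold lower under erianin, a bound that covers counting error only. The fitted log2 fold change of −11.07 ± 0.67 (SE; edgeR adjusted p = 0.00706) depends on the prior count, since both erianin libraries were at 0. Adjusted p was 0.142 by limma-voom. It was 0.373 when every gene entered by its largest row only, which left the counts of this gene as they were, since it has 1 row.

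Its parents did not share this pattern. RPL36A had 376 and 502 CPM under erianin and 404 and 388 CPM under DMSO, so the groups overlapped. HNRNPH2 had 18.6 and 15.0 CPM under erianin and 20.3 and 19.8 CPM under DMSO, lower in both erianin libraries. The 3 gene IDs summed to 394 and 517 CPM under erianin and 429 and 413 CPM under DMSO, with a log2 fold change of 0.11 ± 0.13 (SE; edgeR adjusted p = 0.753). The counts of the read-through gene were 1.01% and 1.05% of this sum in the DMSO libraries. RPL36A has processed pseudogenes elsewhere in the genome, so its own counts are uncertain as well.

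RAB4B-EGLN2 (chr19:40778242-40808418, + strand) joins RAB4B, a small GTPase of endosomal recycling, to EGLN2, a prolyl hydroxylase that marks hypoxia-inducible factor for degradation. It had 4 and 0 counts under erianin, against 2223 and 700 counts under DMSO. This was 0.0628 and 0 CPM under erianin and 33.7 and 11.2 CPM under DMSO. The groups did not overlap, and the DMSO libraries themselves differed 3-fold. The fitted log2 fold change was −9.31 ± 0.84 (SE; edgeR adjusted p = 0.0176). The call was lost with library totals as the only scaling (adjusted p = 0.107) and by limma-voom (adjusted p = 0.493). It was also lost on FPKM, with adjusted p = 0.367 at a pseudocount of 0.1 and 0.664 at a pseudocount of 1. Nearly all of its counts stood in 1 of its 3 rows, which held 0 and 0 counts under erianin and 2218 and 696 under DMSO. When every gene entered by its largest row only, adjusted p was 0.594, although this left the counts of RAB4B-EGLN2 nearly as they were.

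Both parents of RAB4B-EGLN2 were higher in both erianin libraries than in either DMSO library. RAB4B had 30.4 and 33.8 CPM under erianin and 16.8 and 28.6 CPM under DMSO, with a log2 fold change of 0.50 ± 0.23 (SE). EGLN2 had 138 and 163 CPM under erianin and 115 and 122 CPM under DMSO, with a log2 fold change of 0.35 ± 0.11 (SE). Neither passed edgeR's test, and in both genes the lowest library was DMSO replicate 1, where the read-through gene was highest. RAB4B-EGLN2 took 0.0373% and 0% of the counts of the 3 gene IDs under erianin and 20.4% and 6.94% under DMSO. The 3 gene IDs summed to 168 and 197 CPM under erianin and 165 and 162 CPM under DMSO. RAB4B is also a parent of MIA-RAB4B, and the sum over both read-through genes and their 3 parents had a log2 fold change of 0.17 ± 0.10 (SE; edgeR adjusted p = 0.581).

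**Figure D1:**
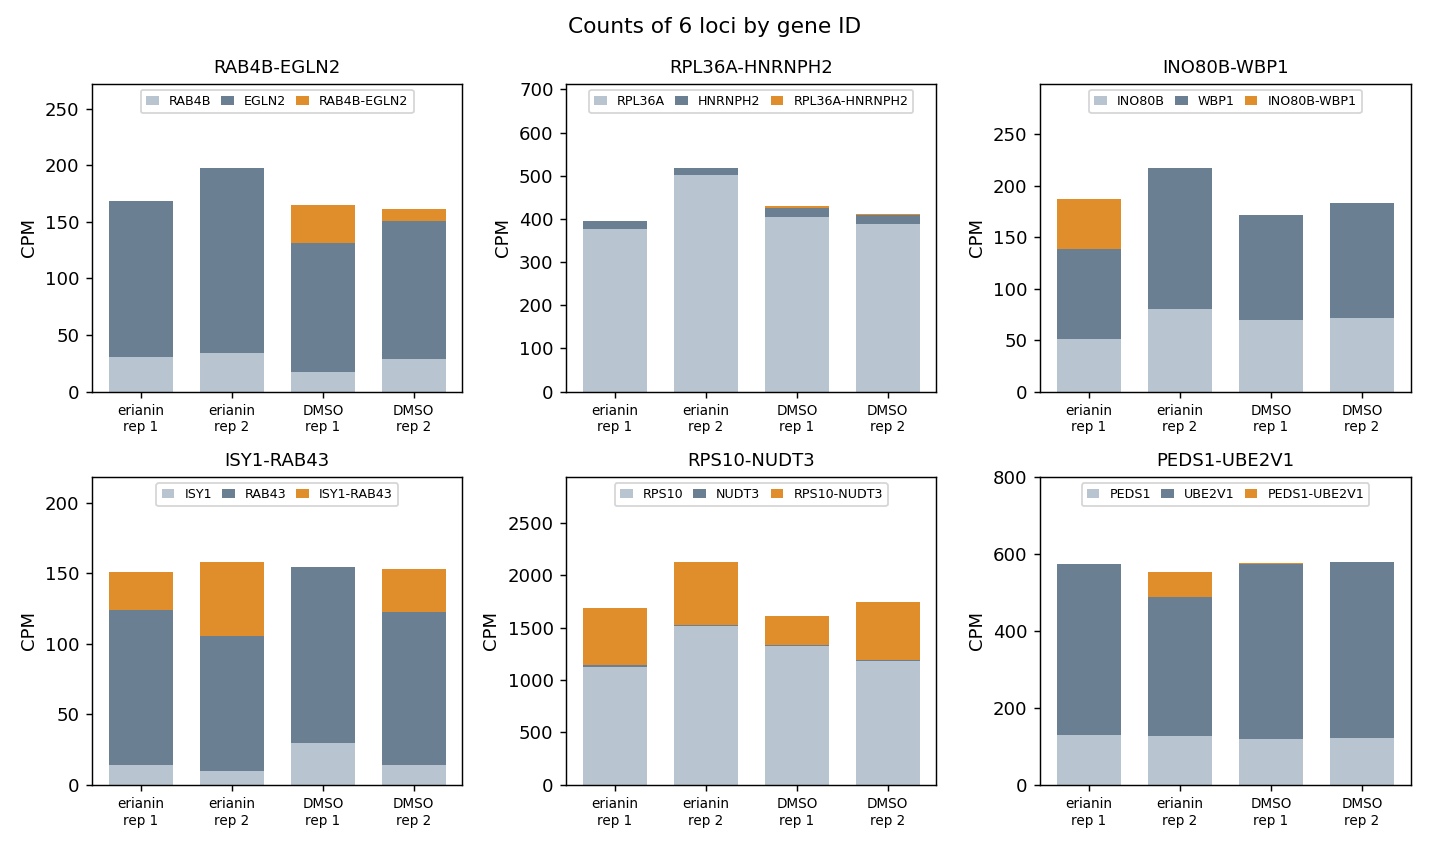
Stacked bars give the CPM of a read-through gene (orange) and its upstream and downstream parent (light and dark grey) in each of the 4 libraries, erianin on the left and DMSO on the right, for 6 loci. Relative to its own level, the orange part changed more over the 4 libraries than the whole bar did. In CPM the whole bar changed more in RAB4B-EGLN2, RPL36A-HNRNPH2 and RPS10-NUDT3. The orange part of RPS10-NUDT3 was present in every library, and that of RPL36A-HNRNPH2 was alike in the replicates of each group. ISY1-RAB43 had 0 CPM in DMSO replicate 1 and its locus stayed between 151 and 158 CPM.

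Several read-through genes with many counts were at 0 in the other replicate of the same group. INO80B-WBP1 (chr2:74455088-74460884, + strand) joins INO80B, a subunit of a chromatin remodelling complex, to WBP1, a protein that binds WW domains. Both of its annotated transcripts are targets of nonsense-mediated decay. It had 3046 and 0 counts under erianin, against 0 and 0 counts under DMSO, and was not tested. In erianin replicate 1 it was at 47.8 CPM, at least 886-fold higher than the floor of 3 counts in erianin replicate 2. INO80B had 51.4 and 80.4 CPM under erianin and 69.2 and 71.3 CPM under DMSO, and WBP1 had 87.5 and 137 CPM under erianin and 102 and 112 CPM under DMSO. Both parents were thus at their lowest in the single library that held the read-through gene. The 3 gene IDs summed to 187 and 217 CPM under erianin and 172 and 183 CPM under DMSO, with a log2 fold change of 0.19 ± 0.11 (SE; edgeR adjusted p = 0.569).

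ISY1-RAB43 (chr3:129087575-129161036, − strand) joins ISY1, a spliceosome-associated protein, to RAB43, a small GTPase of the Golgi. It had 27.7 and 52.8 CPM under erianin, against 0 and 30.2 CPM under DMSO. DMSO replicate 1 stood alone at 0, while DMSO replicate 2 lay between the erianin libraries. ISY1 had 13.8 and 9.99 CPM under erianin and 29.9 and 13.8 CPM under DMSO. RAB43 had 109.9 and 95.5 CPM under erianin and 124 and 109 CPM under DMSO. Both parents were highest in DMSO replicate 1, where the read-through gene was at 0, and lowest in erianin replicate 2, where it was highest. The 3 gene IDs summed to 151 and 158 CPM under erianin and 154 and 153 CPM under DMSO (log2 fold change 0.01 ± 0.09, SE; edgeR adjusted p = 0.973).

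PEDS1-UBE2V1, named here after its values were seen, joins PEDS1, the desaturase that makes plasmalogens, to UBE2V1, a partner of the ubiquitin-conjugating enzyme UBE2N. It had 0 and 64.6 CPM under erianin, against 3.71 and 0 CPM under DMSO. Only erianin replicate 2 held it in number, and UBE2V1 was lowest there, with 447 and 362 CPM under erianin and 456 and 459 CPM under DMSO. PEDS1 had 129 and 127 CPM under erianin and 118 and 121 CPM under DMSO. Their sum was 575 and 553 CPM under erianin and 578 and 580 CPM under DMSO, a range of 1.05-fold over the 4 libraries.

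Such on-and-off counts were counted with a criterion chosen after the data were seen, at least 50 counts in 1 library and at most 3 in the other library of the same group. Of the 71 tested read-through genes 16 met it (22.5%), against 3 of 156 tested parents (1.92%) and 0.398% of all genes tested. In 9 of the 16 the erianin libraries differed in this way and in 11 the DMSO libraries did, so that 4 did so in both groups. Those 4 were MIA-RAB4B, MSANTD3-TMEFF1, PEDS1-UBE2V1 and RPL17-C18orf32, and all except PEDS1-UBE2V1 held their counts in replicate 1 of both groups. The library that held the counts was erianin replicate 1 in 6 cases, erianin replicate 2 in 3, DMSO replicate 1 in 7 and DMSO replicate 2 in 4. A count of 0 in some library was found in 21 of the 71 read-through genes (29.6%), in 3.21% of parents and in 4.37% of all genes tested.

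The criterion was met more often where the annotation left a read-through gene no exon of its own. Among tested read-through genes without own exon bases it was 10 of 19 (52.6%), and among those with own exon bases 6 of 48 (12.5%). Own exon bases were taken from GENCODE 29, which need not be the annotation used for counting. The 4 read-through genes that it lacks are left out of the splits by annotation. TIMM23B-AGAP6, which met the criterion, is a lincRNA there with 81.6% own exon bases and 0% in AGAP6 exons. Read-through genes with 1 row in the count table met it in 12 of 29 cases (41.4%), and those with more than 1 row in 4 of 42 (9.52%). Over all genes tested the shares were 1.06% with 1 row and 0.198% with more than 1 row. With an annotated target of nonsense-mediated decay the share was 7 of 34 (20.6%), and without one 9 of 33 (27.3%). Where the parents lay under 3000 bp apart it was 10 of 34 (29.4%), and where they lay farther apart 6 of 33 (18.2%). These shares are descriptions of this set, with no test.

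The spread between replicates was wider in read-through genes than in their parents. The median absolute log2 ratio between the replicates was 0.93 in the erianin group and 0.93 in the DMSO group. For the parents it was 0.29 in the erianin group and 0.16 in the DMSO group, and for all genes tested 0.29 and 0.16. The read-through genes were mostly of low level, 48 of 71 having a mean log2 CPM under 2. At that level the median ratio was 1.45 in the erianin group and 1.26 in the DMSO group, against 0.55 and 0.45 for all genes of the same level. From 2 to 4 it was 0.53 in the erianin group and 0.49 in the DMSO group for 16 read-through genes, against 0.28 and 0.15 for all genes.

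**Figure D2:**
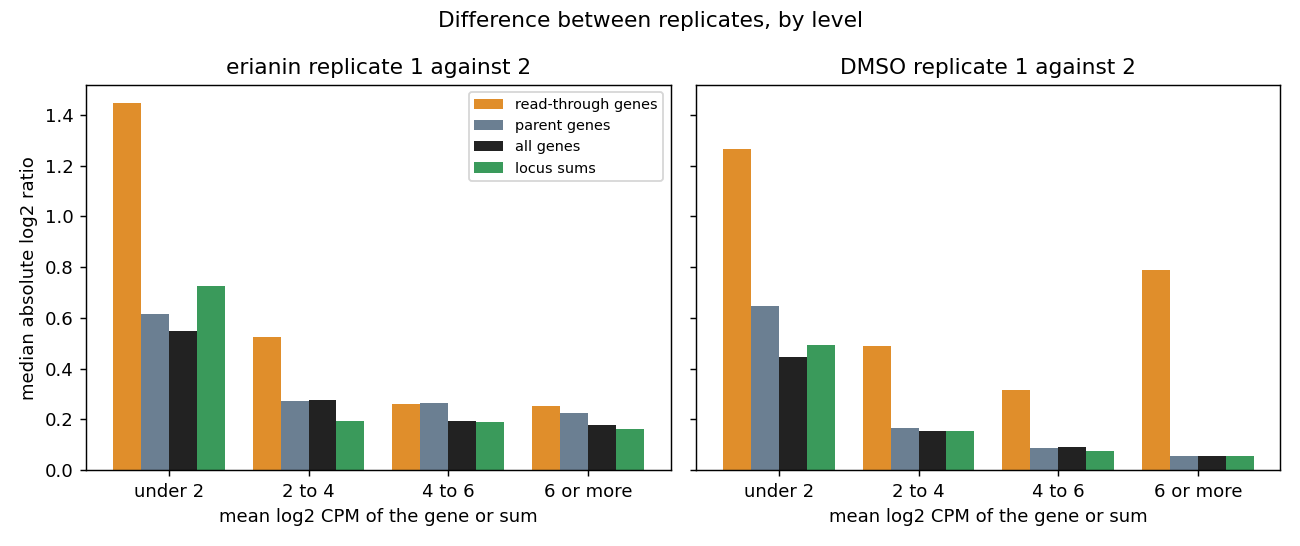
Bars give the median absolute log2 ratio of CPM between the 2 replicates of erianin (left) and of DMSO (right) for read-through genes, parents, all genes tested and locus sums, in 4 classes of mean log2 CPM. Read-through genes had the highest bar in every DMSO class and in all erianin classes except 4 to 6, where parents reached 0.26; the classes 4 to 6 and 6 or more hold only 4 and 3 read-through genes.

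Sums of each read-through gene with its parents varied about as much between replicates as other genes of their level. The 89 read-through genes and their parents formed 87 loci, since loci that share a gene were joined, and 86 of their sums were tested. For the locus sums the median absolute log2 ratio between replicates was 0.19 in the erianin group and 0.08 in the DMSO group. The highest library was less than 1.5 times the lowest in 71 of 86 locus sums (82.6%), in 57.1% of parents, in 52.3% of all genes tested and in 4 of 71 read-through genes (5.63%). The sums were of higher level than the read-through genes and consisted mostly of parent counts. At a mean log2 CPM of 6 or more the median ratio of the sums was 0.16 in the erianin group and 0.06 in the DMSO group, against 0.18 and 0.06 for all genes. Under 2 it was 0.73 in the erianin group and 0.49 in the DMSO group for 7 sums, against 0.55 and 0.45 for all genes. In the library where the read-through gene was highest, its parents together were at their lowest of the 4 libraries in 24 of 71 cases and at their highest in 13. These numbers are a description, with no test.

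No locus sum passed the test. By edgeR 0 of 86 locus sums had an adjusted p under 0.05, with 0.0295% called over the 16949 rows of that table, and 2 of 86 (2.33%) had an unadjusted p under 0.05, against 8.47% of all rows. DESeq2 and limma-voom called 0 as well, each with 4 at an unadjusted p under 0.05, against 1528 and 1716 of all rows. Without erianin replicate 1, which leaves 1 erianin library, some locus sums passed. Many genes of all kinds passed in that setting. The log2 fold changes of the locus sums ran from −0.72 to 0.42 with a median of 0.06. Those of the read-through genes ran from −11.07 to 5.13 with a median of 0.01, with 35 below 0 and 36 above, against a median of −0.01 over all genes tested.

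**Figure D3:**
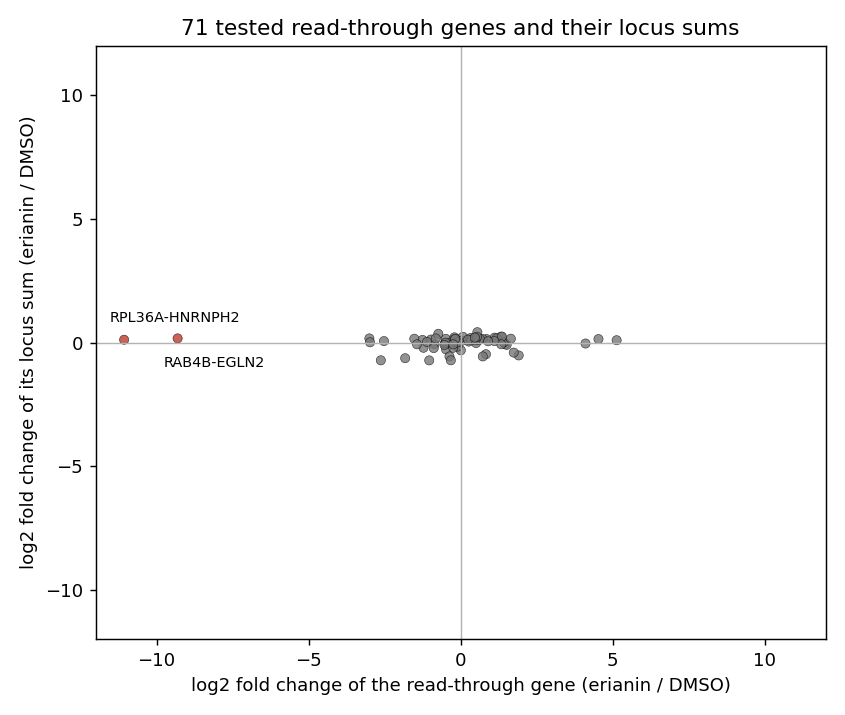
Each point is a tested read-through gene, with its log2 fold change (erianin over DMSO) on the x axis and that of its locus sum on the y axis, both axes on the same scale. The points spread from −11.07 to 5.13 along x and within −0.72 to 0.42 along y; the red points are the genes past the threshold, RPL36A-HNRNPH2 and RAB4B-EGLN2.

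A log2 fold change beyond 1 in either direction was found in 28 of 71 read-through genes (39.4%), in 4.49% of parents and in 5.82% of all genes tested. These shares were not matched for level, and 48 of the 71 had a mean log2 CPM under 2. Replicates differed by more than 1 log2 unit in 49.3% (erianin) and 47.9% (DMSO) of read-through genes. Over all genes tested this was 11.6% and 8.92%. An unadjusted p under 0.05 was found in 15 of 71 (21.1%, 9 higher and 6 lower under erianin), in 10.3% of parents and in 8.1% of all genes tested. The erianin and DMSO libraries did not overlap in 28 of 71 read-through genes (39.4%), in 42.9% of parents and in 46.1% of all genes tested. Of the 156 tested parents edgeR called 0, with 16 at an unadjusted p under 0.05, while DESeq2 called 1 and limma-voom 0.

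RPS10-NUDT3 had the highest mean CPM of the read-through genes and unequal parents. It lies at chr6:34284887-34426071 (− strand) and joins RPS10, a protein of the small ribosomal subunit, to NUDT3, a hydrolase of diphosphoinositol polyphosphates. It had 545 and 605 CPM under erianin, against 275 and 550 CPM under DMSO (log2 fold change 0.48 ± 0.27, SE). DMSO replicate 1 was the low library and DMSO replicate 2 reached the level of the erianin libraries. It took 32.3% and 28.4% of the counts of its locus under erianin and 17.1% and 31.5% under DMSO. RPS10 had 1129 and 1516 CPM under erianin and 1322 and 1183 CPM under DMSO, and NUDT3 had 11.9 and 10.1 CPM under erianin and 15.0 and 13.3 CPM under DMSO. Per length, the read-through gene was lower than RPS10, with 100.8 and 100.6 FPKM under erianin and 53.1 and 112 FPKM under DMSO. RPS10 had 1381 and 1623 FPKM under erianin and 1740 and 1359 FPKM under DMSO. RPS10 has many processed pseudogenes, so its counts are uncertain.

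NME1-NME2 joins a pair of nucleoside diphosphate kinases that are closely similar in sequence, so its counts are uncertain. It had 135 and 109.6 CPM under erianin, against 60.2 and 102 CPM under DMSO. Both erianin libraries were above both DMSO libraries, with DMSO replicate 1 the lowest (log2 fold change 0.59 ± 0.23, SE; edgeR adjusted p = 0.575). SENP3-EIF4A1 joins a SUMO protease to an RNA helicase of translation initiation. It had 89.0 and 74.8 CPM under erianin, against 64.4 and 111 CPM under DMSO, with the DMSO libraries on either side of the erianin libraries. Its locus ranged over 1.03-fold, at 2154 and 2212 CPM under erianin and 2190.0 and 2158 CPM under DMSO.

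RNASEK-C17orf49 joins the ribonuclease RNASEK to C17orf49, a protein of chromatin complexes. It had 67.0 and 94.0 CPM under erianin, against 40.2 and 11 CPM under DMSO, without overlap. The log2 fold change was 1.65 ± 0.49 (SE; edgeR adjusted p = 0.575). C17orf49 itself had 39.1 and 31.8 CPM under erianin and 49.4 and 64.8 CPM under DMSO, and was ordered in the opposite way in every library. RNASEK had 425 and 466 CPM under erianin and 426 and 416 CPM under DMSO.

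BORCS8-MEF2B showed a like pair of values. It joins BORCS8, a subunit of a complex that positions lysosomes, to the transcription factor MEF2B. It had 22.0 and 26.2 CPM under erianin, against 15.4 and 11.3 CPM under DMSO, without overlap. The means were 24.1 ± 2.97 CPM under erianin and 13.3 ± 2.90 CPM under DMSO (SD, n = 2 each). The log2 fold change was 0.86 ± 0.19 (SE; edgeR adjusted p = 0.575), and DESeq2 called it with an adjusted p of 0.0160. MEF2B had 4.21 and 4.01 CPM under erianin and 7.12 and 9.20 CPM under DMSO, lower in both erianin libraries. The read-through gene took 48.6% and 51.1% of the locus counts under erianin and 34.0% and 26.6% under DMSO, while the sum was 45.4 and 51.4 CPM under erianin and 45.3 and 42.5 CPM under DMSO. With the largest row alone the log2 fold change of the read-through gene was −0.36. CHKB-CPT1B, which only DESeq2 called besides, had 6.86 and 5.61 CPM under erianin and 2.61 and 2.36 CPM under DMSO.

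NDUFC2-KCTD14 and BOLA2-SMG1P6 were among the few read-through genes with close replicates. NDUFC2-KCTD14 joins a subunit of respiratory complex I to a protein with a potassium channel tetramerisation domain. It had 33.0 and 39.7 CPM under erianin, against 47.3 and 46.9 CPM under DMSO, lower in both erianin libraries (log2 fold change −0.37 ± 0.13, SE; edgeR adjusted p = 0.575). BOLA2-SMG1P6 joins BOLA2, a protein of iron-sulphur cluster transfer, to a pseudogene of the kinase SMG1. It had 25.8 and 24.8 CPM under erianin, against 26.3 and 29.9 CPM under DMSO, lower in both erianin libraries by a small margin. It lies in a duplicated stretch of chromosome 16 with near-identical copies, so its counts are uncertain.

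**Figure D4:**
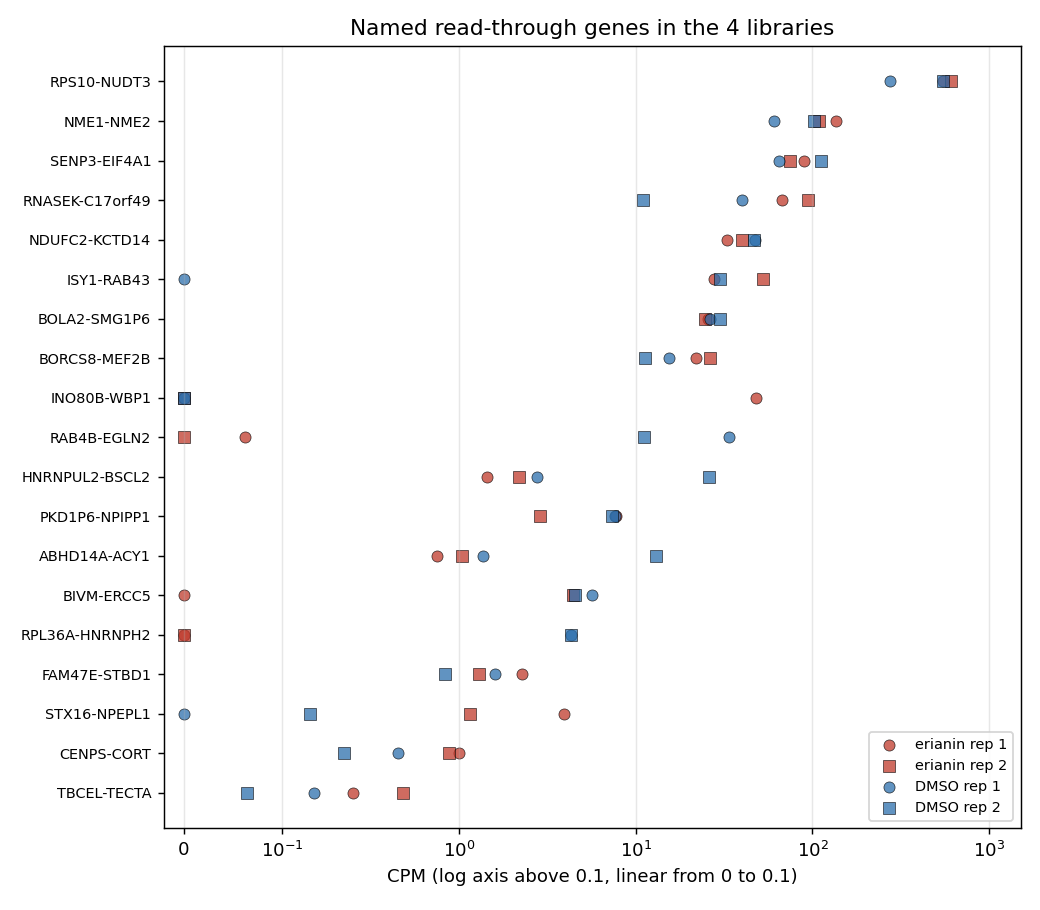
Each row is a named read-through gene and each symbol its CPM in 1 library (red erianin, blue DMSO; circles replicate 1, squares replicate 2), on an axis that is logarithmic above 0.1 and linear below it. RAB4B-EGLN2 and RPL36A-HNRNPH2 have both red symbols at or near 0 and both blue ones above 4 CPM; in INO80B-WBP1 the red circle at 47.8 CPM stands alone and the symbols of the other 3 libraries lie on each other at 0.

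In the locus of BIVM-ERCC5 the read-through gene took most of the counts in every library but one. BIVM-ERCC5 joins BIVM to ERCC5, the endonuclease of nucleotide excision repair that cuts on the 3′ side of a lesion. It had 0 and 4.41 CPM under erianin, against 5.64 and 4.57 CPM under DMSO. It took 0% and 64.1% of the locus counts under erianin and 57.9% and 62.5% under DMSO, so erianin replicate 1 stood alone. ERCC5 was highest where the read-through gene was at 0, with 6.08 and 1.67 CPM under erianin and 3.27 and 2.2 CPM under DMSO.

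PKD1P6-NPIPP1 and FAM47E-STBD1 also took a high share of their loci, at low level. PKD1P6-NPIPP1 joins 2 pseudogenes of a duplicated family, whose counts are uncertain. It had 7.74 and 2.88 CPM under erianin, against 7.67 and 7.34 CPM under DMSO. Erianin replicate 2 was the low library, and NPIPP1 was highest there, with 0.0157 and 4.50 CPM under erianin and 0.0152 and 1.23 CPM under DMSO. FAM47E-STBD1 joins FAM47E to STBD1, a protein that binds glycogen. It had 2.28 and 1.30 CPM under erianin, against 1.61 and 0.833 CPM under DMSO, with overlap. Over the 20 read-through genes that the naming rule chose, in part for a high share or CPM, the median share of locus counts was 12.9% and 15.7% in the erianin libraries and 6.58% and 13.4% in the DMSO libraries. Over all 89 read-through genes the median of the mean share over the 4 libraries was 5.57%.

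Among read-through genes whose groups did not overlap, the highest fitted log2 fold changes belonged, besides RNASEK-C17orf49, to genes of low level. STX16-NPEPL1, which joins a syntaxin of the trans-Golgi network to an aminopeptidase-like protein, had 3.94 and 1.15 CPM under erianin, against 0 and 0.144 CPM under DMSO (log2 fold change 5.13 ± 1.05, SE; edgeR adjusted p = 0.575). CENPS-CORT, which joins a centromere protein to the neuropeptide precursor cortistatin, had 1.005 and 0.882 CPM under erianin, against 0.455 and 0.224 CPM under DMSO. TBCEL-TECTA joins a protein related to a tubulin folding cofactor to a protein of the inner ear. It had 0.251 and 0.486 CPM under erianin, against 0.152 and 0.0641 CPM under DMSO. By the rule that chose them, all 3 had both erianin libraries above both DMSO libraries, and none passed edgeR's test.

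The largest differences in the other direction after the called genes came from 1 library. ABHD14A-ACY1 joins a hydrolase-like protein to ACY1, an aminoacylase. It had 0.754 and 1.04 CPM under erianin, against 1.36 and 13.0 CPM under DMSO (log2 fold change −3.00 ± 0.87, SE; edgeR adjusted p = 0.575). HNRNPUL2-BSCL2 joins an RNA-binding protein to seipin, a protein of lipid droplet formation. It had 1.44 and 2.2 CPM under erianin, against 2.77 and 25.9 CPM under DMSO (log2 fold change −2.98 ± 0.85, SE; edgeR adjusted p = 0.575). In both, DMSO replicate 2 was far above the other 3 libraries, and DMSO replicate 1 lay close to the erianin libraries. The locus of HNRNPUL2-BSCL2 summed to 288 and 289 CPM under erianin and 287 and 285 CPM under DMSO.

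Genes that end transcripts or remove faulty ones were taken as the pathway around read-through RNA. The list held 20 genes of cleavage and polyadenylation, 10 of termination and 10 of nonsense-mediated decay, and all 40 were tested. By edgeR 0 of the 40 passed the threshold, with 5 (12.5%) at an unadjusted p under 0.05, all lower under erianin. Over all genes tested that share was 8.1%, with 1007 lower and 378 higher. DESeq2 and limma-voom called 0 as well, with 7 and 9 at an unadjusted p under 0.05, against 1511 and 1673 of all genes. Of the 40, 28 had a log2 fold change below 0 and 12 above, and the median was −0.19, against −0.01 over all genes tested. The median was −0.15 for cleavage and polyadenylation, −0.30 for termination and −0.17 for decay. Without erianin replicate 1 the count past the threshold was 13, in a fit that called 3166 genes in all.

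Genes of that list with the smallest p in each class were lower under erianin, with 1 exception. CPSF2, a subunit of the complex that recognises the polyadenylation signal, had 15.9 and 12.3 CPM under erianin and 21.1 and 21.0 CPM under DMSO (log2 fold change −0.58 ± 0.17, SE). PAPOLA, the poly(A) polymerase, had 40.3 and 30.9 CPM under erianin and 50.8 and 44.9 CPM under DMSO (−0.43 ± 0.16). Of the termination genes, RPRD1A, which binds the tail of RNA polymerase II, had 4.33 and 3.60 CPM under erianin and 6.51 and 5.82 CPM under DMSO, a difference of −0.64 ± 0.22 on the log2 scale. Of the decay genes, UPF3B, which links exon junctions to decay, differed by −0.56 ± 0.25, and SMG9, a regulator of the kinase SMG1, by 0.21 ± 0.09. In all 5 the erianin and DMSO libraries did not overlap, which a choice by smallest p favours. The groups did not overlap in 46.1% of all genes tested. Each of the 5 had an edgeR adjusted p of 0.575.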

How the data were processed

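Total RNA of SW1990 cells was sequenced, in 2 libraries under erianin and 2 under DMSO, grouped by their titles. Per the submitters' processing notes, fastp, STAR, StringTie 2.2.1, featureCounts 2.0.1 and GRCh38 were used, their roles being unstated. Which annotation was used, whether counting was stranded, and how reads shared by overlapping genes were divided is not given in the sources used here. A table of counts, as deposited, covers 25798 gene IDs in 107429 rows. Its values were treated as estimated counts deposited by the authors without normalization, since rows of 1 gene hold divided values; the plan had assumed plain counts. Per the file headers, a second deposited table holds FPKM. Rows of a gene ID were summed.

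Gene IDs were given symbols from a supplied name list. The members and gene lists were chosen with earlier results of these data known. The read-through genes named in the text are those past the threshold, the 8 with the highest mean CPM, the 5 with the highest mean share of locus counts at a mean of at least 1 CPM, up to 4 each with the highest and lowest fitted log2 fold change among those whose groups do not overlap, and RAB4B-EGLN2, RPL36A-HNRNPH2 and INO80B-WBP1. Of the list of 3′ end and decay genes, the 2 with the smallest p of each class are named. Items that the rule chose and that are withheld are not reported here. Any other gene was chosen after its values were seen.

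Genes were tested with edgeR 4.0.16 (R 4.3.3): TMM factors of 1.01 and 0.928 for erianin and 1.04 and 1.03 for DMSO, filterByExpr with a minimum count of 10 (17090 genes kept, 8708 removed), the quasi-likelihood F test and Benjamini-Hochberg adjustment at 0.05, with 2 residual degrees of freedom and a biological coefficient of variation of 0.233. Standard errors are the log2 fold change over the square root of F. CPM uses TMM-adjusted library sizes. In a second fit each read-through gene and its parents were replaced by their sum, joined where loci share a gene (87 loci, 16949 rows tested). With 2 libraries a group an exact permutation test cannot go below p = 0.333, so shares of locus counts carry no test. Floors of 3 counts cover counting error only. Positions, exons and junctions came from GENCODE 29. The fit was tested on simulated data, drawn as independent negative binomial counts for each gene. That simulation held no genes on and off within a group and no reads divided between genes, so it does not cover the behaviour described here. Alternatives used limma 3.58.1 and DESeq2 1.42.0, other scalings and filters, FPKM, and libraries left out.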

Additional observations from a re-analysis of the deposited data

How the results depend on the processing

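The count of genes past the threshold, 7 of 17090, was 2 with library totals alone, 21 by DESeq2, 0 by limma-voom (1673 at an unadjusted p under 0.05), 0 with the largest row of each gene only, 2 on FPKM at either pseudocount and 24 to 3166 with 1 library left out. For read-through genes the count of 2 was 1 with library totals alone, 4 by DESeq2, 0 by limma-voom, 0 with the largest row only, 1 on FPKM at either pseudocount and 4 to 16 with 1 library left out, and it held at 2 with other factors, other filters and the trend with GC content and length removed. The count of 0 parents past the threshold was 1 by DESeq2 and 0 to 39 with 1 library left out (39 without erianin replicate 1, 4 without DMSO replicate 2). That of locus sums was 0 to 28 and that of 3′ end and decay genes 0 to 13 with 1 library left out, the highest each without erianin replicate 1.

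The labels do not say that replicate numbers pair the libraries, and 2 pairs are too few to settle it from the data; deviations of same-numbered libraries correlated at r = 0.222 over 7986 genes. With the replicate number as a block 334 genes, 22 read-through genes, 6 parents, 1 locus sum and 1 gene of the 3′ end and decay list passed. The locus sum of the RAB4B-EGLN2 genes passed only without erianin replicate 1 (0.26, edgeR adjusted p = 0.0176), as did that of RPL36A-HNRNPH2 (0.29, edgeR adjusted p = 0.00696), whose sign turned without erianin replicate 2 (−0.093). Signs also turned for SENP3-EIF4A1 (−0.44 to 0.35 with 1 library left out, above 0 without erianin replicate 2 or DMSO replicate 2), BORCS8-MEF2B (−0.36 with the largest row only) and PKD1P6-NPIPP1 (−1.39 to 0.047, above 0 without erianin replicate 2). Over the 20 read-through genes chosen in part for their share, the median share of locus counts in the erianin libraries, 14.3%, was 8.97% on FPKM and 12.9% to 15.7% with 1 library left out; in the DMSO libraries it was 9.98%, and 6.58% to 13.4% with 1 left out. The causes were not tested. The 16 read-through genes on and off between replicates were 20, 12 or 15 at other thresholds and 18 with untested genes included. At the depth of these libraries a gene at 0 may still hold up to 3 counts.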
